A study of Mus musculus with 8 samples.

Results

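The expression of 31 genes of cholesterol synthesis, uptake and efflux was examined in the pituitary of old and young mice. The members were taken by symbol from a named list, and each of the 31 stood on 1 of the 49585 gene rows of every library. Bulk RNA sequencing of poly(A) RNA was done on whole pituitary of wild-type C57BL/6 mice at 18–24 months (old, 4 libraries) and at 2–3 months (young, 4 libraries), all kept specific-pathogen-free on regular chow and perfused to remove circulating blood cells. No allele, transgene or drug separated the groups, so age was the only labelled difference. The labels do not say that each library came from a separate mouse, and the sex of these mice is not given in the sources used here, so p-values measure the spread between these libraries.

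Animal cells make cholesterol from acetyl-CoA through mevalonate, farnesyl diphosphate, squalene and lanosterol. The pathway is switched on by SREBP-2, a transcription factor held in the endoplasmic reticulum by SCAP and the INSIG proteins while sterols are plentiful. When sterols accumulate, their oxidised forms bind the liver X receptors LXRα (Nr1h3) and LXRβ (Nr1h2), which switch on exporters such as Abca1 and Abcg1 and the lipid carrier apolipoprotein E (Apoe). In the pituitary, cholesterol is a component of the membranes through which hormone granules are released. The members were set in 3 role groups, namely 18 synthesis genes, 9 genes of sterol sensing and movement, and 4 efflux genes.

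The 250 bases before the transcription start of 2 members are shown because they stand for the ends of the module, a synthesis gene and the efflux gene that changed with age. RefSeq promoters (GRCm38.p6) were on hand for 25 of the 31 members. The synthesis enzyme Hmgcs1 (chr13:119690101-119690350, plus strand) was the only one of them with a match to the sterol regulatory element letters TCACNCCAC on either strand. Apoe (chr7:19699189-19699438, minus strand) was chosen after its values had been seen, and of its annotated starts the most upstream was taken. Capitals mark the sterol regulatory element and CCAAT boxes, which read ATTGG when they lie on the opposite strand.
Hmgcs1: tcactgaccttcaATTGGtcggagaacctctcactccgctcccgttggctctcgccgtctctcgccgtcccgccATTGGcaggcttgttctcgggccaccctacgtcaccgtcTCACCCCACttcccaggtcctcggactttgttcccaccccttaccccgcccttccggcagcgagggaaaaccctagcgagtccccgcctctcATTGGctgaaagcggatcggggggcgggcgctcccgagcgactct
Apoe: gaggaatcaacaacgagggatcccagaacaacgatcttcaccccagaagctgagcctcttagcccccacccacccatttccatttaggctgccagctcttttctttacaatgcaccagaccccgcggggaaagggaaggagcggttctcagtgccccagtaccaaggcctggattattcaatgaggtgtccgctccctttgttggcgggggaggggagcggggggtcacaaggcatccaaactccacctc

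In Hmgcs1 the element began 137 bases before the start, with 2 CCAAT boxes upstream of it and 1 downstream. Over all 32851 promoters of the same length, 1.05% held TCACNCCAC, and 1.22% of the 27025 genes with a promoter did. A gene was counted if any of its promoters held the letters. CCAAT was found in 14 of the 15 synthesis genes with a promoter, in 5 of 7 sensing and movement genes and in 0 of 3 efflux genes, against 37.5% of all genes with a promoter. The GC box letters GGGCGG were found in 14 of 15 synthesis genes, 5 of 7 sensing and movement genes and 1 of 3 efflux genes, against 35.4% of all genes with a promoter. A CCAAT box on the opposite strand can share its last G bases with a GC box, and such matches were counted for both. These matches describe letters in a window and show no binding.

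Library totals were 16098530 to 19272104 fragments in old pituitary and 15042321 to 20429604 in young pituitary. The deposited values were FPKM, fragments scaled by exon length and library total, which allow levels to be compared between genes. They were tested with limma on log2(FPKM + 0.1), a scale on which the change of low genes is understated. The test took the 23498 genes whose mean reached 0.1 FPKM, and a call needed a Benjamini-Hochberg adjusted p under 0.05. All 31 members passed that filter, which uses the mean over both ages. The fourth old library stood apart in markers of pituicytes, the glia of the posterior lobe, and in Nr1h3, Insig1 and Lpl, whose values are given below with it and, for the members, without it. Over all genes 436 were higher and 111 lower in old pituitary, and the median of their log2 fold changes was 0.15. Hormone genes took 9.05 to 11.6% of fragments in old libraries and 12.0 to 14.1% in young ones. Ribosomal RNA repeat genes took 33.8 to 38.1% in old libraries and 33.8 to 40.3% in young ones, and they count in the totals behind FPKM. When libraries were scaled by the median of ratios, or without the hormone and ribosomal RNA repeat genes, that median was 0.0073 or 0.023 and the calls split 208 to 214 or 213 to 187, so fold changes below are also set against the median of all genes.

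Of the 31 members, only Apoe was called higher in old pituitary (1 of 31, 3.23%, against 1.86% of all genes tested), and 0 were called lower (0.472% of all genes). At an unadjusted p under 0.05, 2 members were higher, Apoe and Srebf2, and 0 were lower, against 21.8% of all genes in either direction. The voom alternative, run on computed fragments, also called 1 member higher and 0 lower, against 6.12% of all genes called higher and 1.52% called lower, with 3 higher and 1 lower at an unadjusted p under 0.05. At that level limma gave 1 member higher (Apoe) and 4 lower (Cyp51, Dhcr7, Fdft1 and Soat1) with median-of-ratios scaling, and 1 higher and 3 lower (without Soat1) when hormone and ribosomal RNA repeat genes were left out of the scaling. Every old library stood above every young one for Apoe and Srebf2, 6.45% of members against 13.4% of all genes, and every old library stood below every young one for 0 members, against 2.06% of all genes. The shares of members called were thus near those of all genes.

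**Figure D1:**
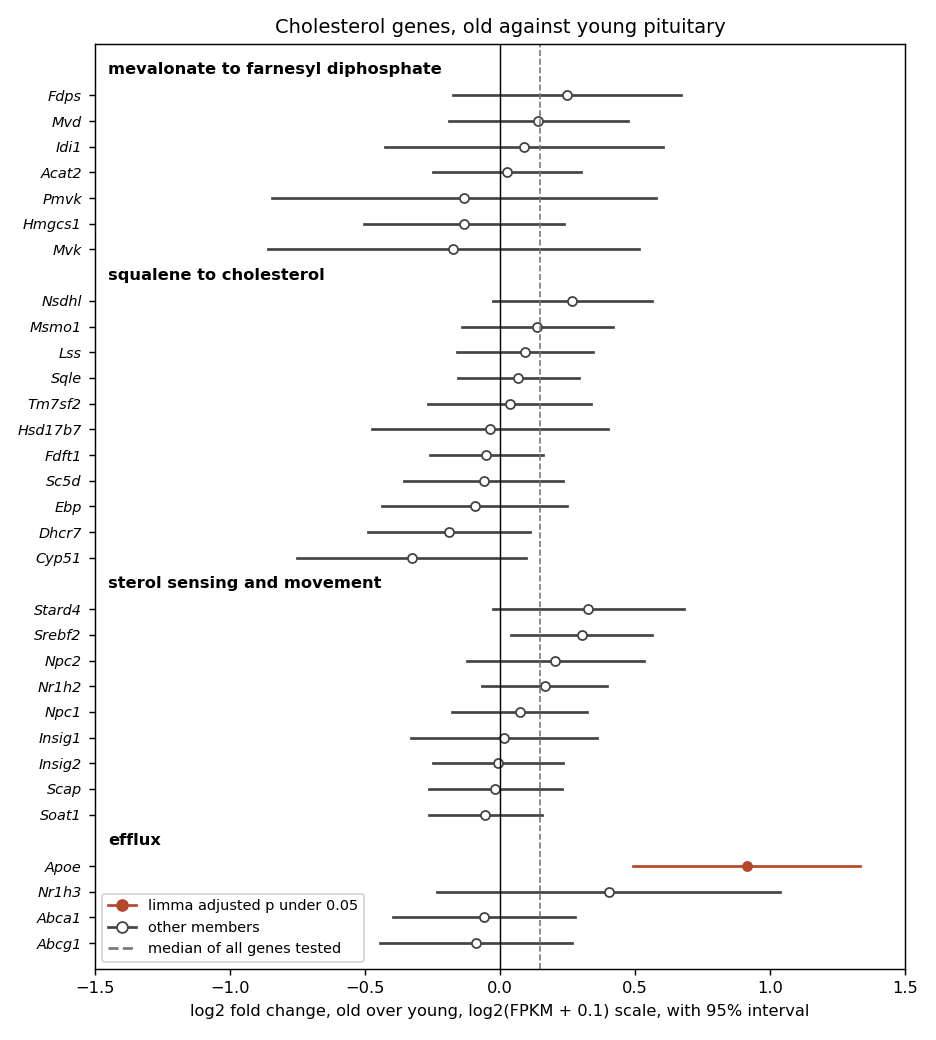
Log2 fold change, old over young, of the 31 members on the log2(FPKM + 0.1) scale, grouped by role and ordered within each group; points are limma estimates, bars their 95% intervals, the filled point the member with an adjusted p under 0.05, and the dashed line the median of all genes tested (0.15). Apoe lies at 0.91 with an interval of 0.49 to 1.33, while the intervals of the 27 synthesis, sensing and movement genes all lie within 1 on either side of 0.

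Apoe encodes the lipid carrier that takes up cholesterol leaving the cell. Its level was 123, 104, 133 and 142 FPKM in old pituitary, against 57.9, 55.9, 66.2 and 90.6 FPKM in young pituitary. The lowest old library, the second, lay above the highest young library, the fourth, so the groups did not overlap. Apoe averaged 126 ± 16.4 FPKM in old pituitary and 67.6 ± 15.9 FPKM in young pituitary (SD, n = 4 each), a ratio of means of 1.86. The log2 fold change was 0.91 with a standard error of 0.18 and an adjusted p of 0.0491 in limma. The gene (chr7:19696109-19699188, minus strand, GRCm38) shares no exon base with another gene of GENCODE M21, and 19181 fragments in old libraries and 10358 in young ones lay behind these values. Apoe was by far the most abundant member, and in each library its FPKM was 10.1 to 17.4 times that of Abca1 in old pituitary and 5.31 to 9.32 times in young pituitary.

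The Apoe call lay next to the threshold. It was lost with either other scaling (adjusted p of 0.0523 and 0.058 in limma) and when any library but the fourth young one was left out (0.0848 to 0.125), while the fold change ranged from 0.76 to 1.06 over the 17 alternatives.

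**Figure D2:**
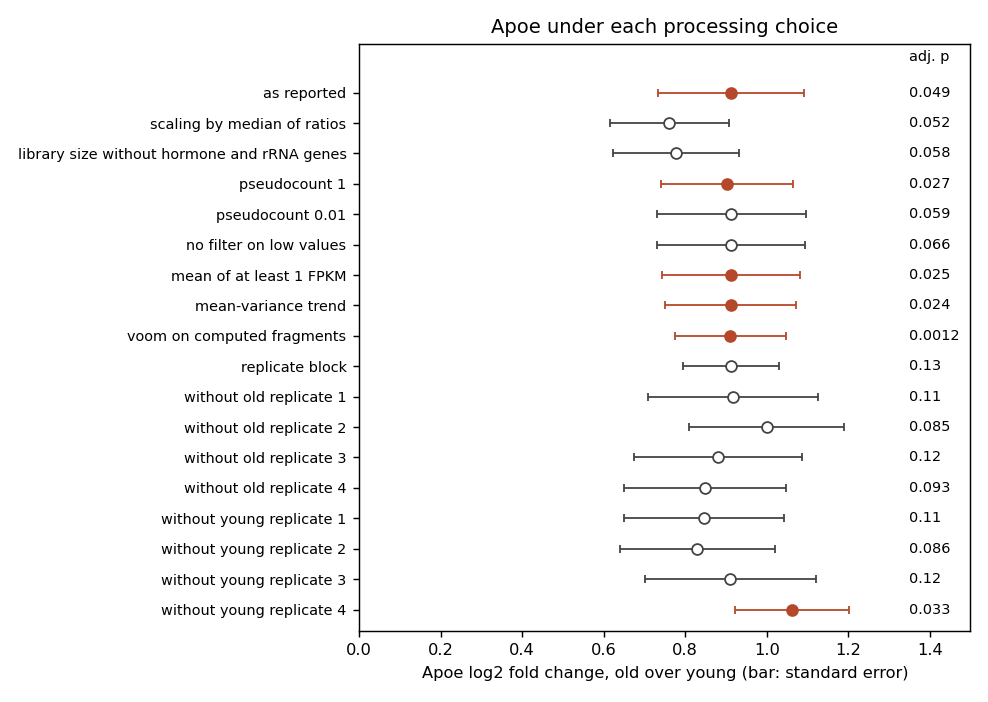
Apoe log2 fold change, old over young, under each processing choice, with bars of 1 standard error; filled points have an adjusted p under 0.05, and the adjusted p is printed at the right. The estimate stays between 0.76 and 1.06 under every choice, and 5 of the 17 alternatives keep the call.

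Macrophages and glia-like cells make Apoe in many tissues, so markers of other cells were set beside it. Of 15 macrophage markers 14 were tested, 3 were called higher in old pituitary (C1qb, Ctss and Lyz2, with log2 fold changes of 1.06, 1.27 and 1.31 and adjusted p of 0.0255, 0.0276 and 0.0482 in limma) and 12 had every old library above every young one. At an unadjusted p under 0.05 limma gave 13 of the 14, and voom called 13 higher. Beside these markers and those below, limma called 1.86% of all genes higher and voom 6.12%. In limma 21.8% of all genes reached that p, and for 13.4% every old library stood above every young one. The summed level of the macrophage list was 114 to 153 FPKM in old libraries and 50.1 to 86.6 FPKM in young ones, and no macrophage marker was at 0 in all 8 libraries. The fourth old library had the highest Apoe level but the lowest macrophage sum of the old libraries, whereas the fourth young library had the highest value of both among young libraries. Apoe over the macrophage sum was 0.727 to 1.25 in old libraries and 0.959 to 1.12 in young ones, which overlapped.

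Among 7 myelin markers, Mbp (myelin basic protein) was called higher (log2 fold change 0.44, adjusted p = 0.0482 in limma), and their sum was 14.2 to 15.9 FPKM in old and 9.68 to 12.0 FPKM in young libraries. Of 6 folliculostellate and stem cell markers 0 were called by limma or voom, and 1 reached an unadjusted p under 0.05 in each. In limma it was Sox2, lower in old pituitary (log2 fold change -0.34). The median log2 fold change of these markers was -0.26, and their sum was 17.2 to 24.5 FPKM in old and 22.4 to 31.01 FPKM in young libraries. Of 4 pituicyte markers 2 were tested, 0 were called by limma and 1, Col25a1, reached an unadjusted p under 0.05, and voom called it higher. The summed level of these markers was 1.06, 1.14, 1.68 and 6.82 FPKM in old libraries, against 0.574, 0.663, 0.712 and 0.551 FPKM in young ones, so that the ages did not overlap and the fourth old library was by far the highest. In that library Scn7a was at 3.00 FPKM, Rax at 0.480 FPKM and Nkx2-1 at 0.422 FPKM, each at 0.107 FPKM or less in every other library. Without it the Apoe log2 fold change was 0.85 (adjusted p = 0.0927 in limma). The part of any of these cells in the Apoe result was not tested, and in bulk tissue a change in cell number and a change in RNA per cell cannot be told apart.

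**Figure D3:**
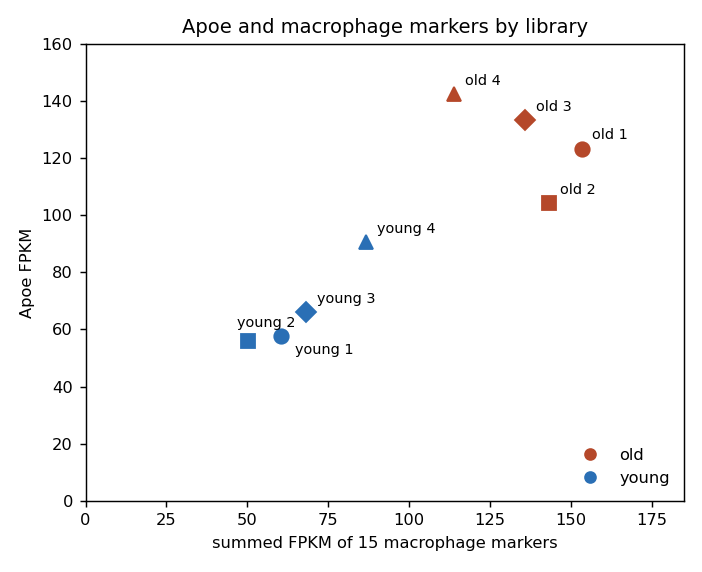
Apoe FPKM against the summed FPKM of 15 macrophage markers, 1 point per library, old in red and young in blue. Old libraries lie at 114 to 153 and young libraries at 50.1 to 86.6 on the marker axis, and within the old libraries the highest Apoe (library 4, 142 FPKM) goes with the lowest marker sum.

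The other efflux genes did not pass the test. Abca1, the exporter that loads lipid-poor apolipoproteins, was at 8.74, 10.3, 8.81 and 8.198 FPKM in old pituitary and at 10.9, 7.32, 9.91 and 9.72 FPKM in young pituitary, and both the highest and the lowest library were young. Its log2 fold change of -0.06 had an interval of -0.40 to 0.28. Abcg1, which exports cholesterol to mature lipoprotein particles, was at 15.7, 16.4, 14.97 and 12.3 FPKM in old pituitary and at 19.0, 13.8, 13.5 and 17.2 FPKM in young pituitary. The old values lay within or just below the young range, and the log2 fold change was -0.09 (-0.44 to 0.27).

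Nr1h3, the LXRα receptor, was at 2.22, 2.17, 2.04 and 1.05 FPKM in old pituitary and at 1.85, 1.06, 1.13 and 1.43 FPKM in young pituitary. Of the old libraries 3 lay above every young one, and the fourth lay below them all. Its log2 fold change was 0.40 (interval -0.23 to 1.04, adjusted p = 0.427 in limma), and without the fourth old library it was 0.64 (adjusted p = 0.152). Few fragments stood behind Nr1h3, 336 in old and 244 in young libraries. Over the 4 efflux genes, Apoe included, the median log2 fold change was 0.17, against 0.15 over all genes.

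**Figure D4:**
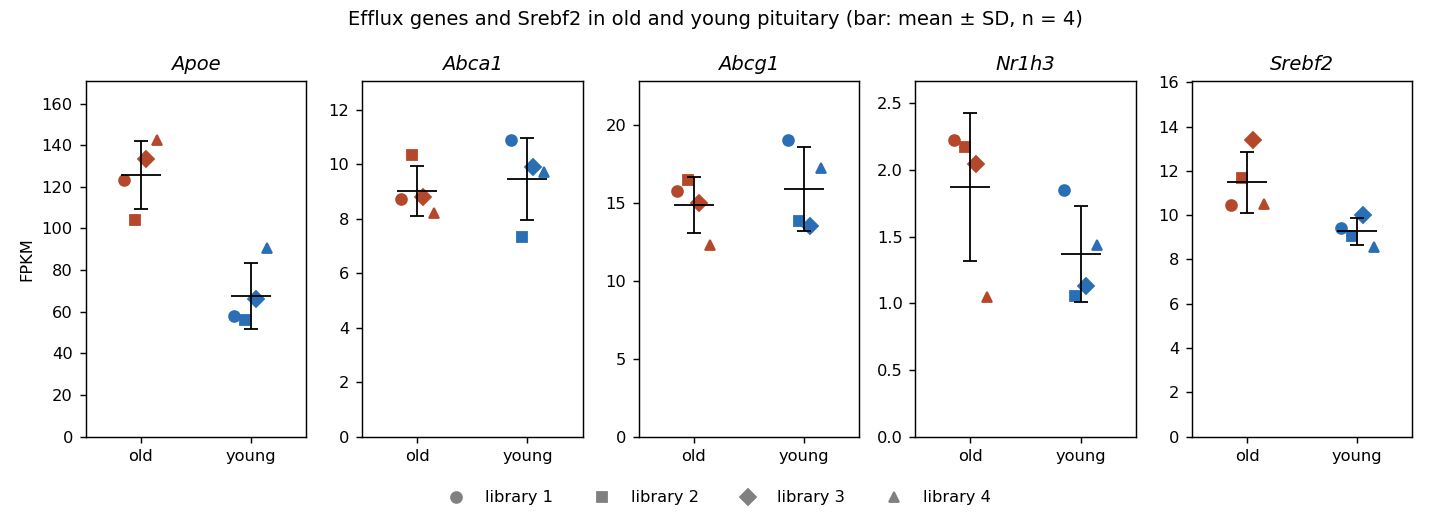
FPKM of the 4 efflux genes and of Srebf2 in each library, old left and young right in each panel, with the mean and SD over 4 libraries as bars and a linear axis from 0. Apoe and Srebf2 show no overlap between ages, Abca1 and Abcg1 overlap widely, and the fourth old library of Nr1h3 (1.05 FPKM) lies apart from the other three.

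Other known targets of the receptors were counted from a list of 10 LXR target genes that includes the 4 efflux genes. Apoe alone was called higher and 0 were called lower by limma (voom called Apoe and Lpl higher and 0 lower), with 2 further genes, Lpl and Lpcat3, at an unadjusted p under 0.05. Of all genes, limma called 1.86% higher and 0.472% lower, and 21.8% reached that p in limma. The shares called by voom were 6.12% higher and 1.52% lower. Lpl, which releases fatty acids from lipoproteins, was at 8.60, 6.95, 9.33 and 3.02 FPKM in old pituitary and at 3.597, 2.83, 3.43 and 3.49 FPKM in young pituitary (log2 fold change 0.93, adjusted p = 0.171 in limma). The fourth old library was low for Lpl as it was for Nr1h3. Lpcat3, which remodels phospholipids, was at 4.71, 4.52, 5.18 and 5.25 FPKM in old and at 6.27, 5.51, 5.65 and 5.77 FPKM in young libraries, below every young one in each old library, with a log2 fold change of -0.24 (adjusted p = 0.199 in limma). Both were named after their values had been seen. The median log2 fold change of the list was 0.12, against 0.15 over all genes.

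Among the 18 synthesis genes 0 were called in either direction by limma, against 1.86% of all genes higher and 0.472% lower. In limma 0 reached an unadjusted p under 0.05, against 21.8% of all genes, while voom gave 0 calls and 1 gene, Cyp51, lower at that level. The median log2 fold change of the 18 genes was -0.0049, 9 lying above 0 and 9 below, and 16 of the 18 lay below the median of all genes. With median-of-ratios scaling 2 lay above 0 and 16 below, with a median of -0.14, so the sign of the group depends on the scaling. With either other scaling 0 were called, and 3 (Cyp51, Dhcr7 and Fdft1) were lower at an unadjusted p under 0.05. The share of all genes at that p was not counted for these scalings. Below the median of all genes lay 16 of 18 under both scalings and 13 to 17 when 1 library was left out. Summed over the 18 genes, the level was 64.5 ± 5.88 FPKM in old pituitary and 67.4 ± 8.74 FPKM in young pituitary (SD, n = 4 each). With FPKM as deposited, the 95% interval of each gene lay within 1 on either side of 0, and for 11 of them within 0.5. These intervals were not adjusted for the number of genes and were measured from 0, not from the median of all genes. The lowest bound was -0.86, for Mvk, short of the -1 of a 2-fold fall. Measured from the median of all genes (0.15), that bound passes -1. A 2-fold fall relative to all genes is thus not excluded for Mvk.

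The early steps run through the thiolase Acat2, the synthase Hmgcs1, the kinases Mvk and Pmvk, the decarboxylase Mvd, the isomerase Idi1 and the farnesyl diphosphate synthase Fdps. Log2 fold changes were -0.17 for Mvk, -0.13 for Hmgcs1, -0.13 for Pmvk, 0.03 for Acat2, 0.09 for Idi1, 0.14 for Mvd and 0.25 for Fdps, with adjusted p of at least 0.46 in limma. Of the 25 members with a promoter at hand, only Hmgcs1 held the exact sterol regulatory element letters. Looser forms of the element were not searched. Hmgcs1 was at 5.80, 7.19, 9.02 and 6.91 FPKM in old pituitary and at 7.00, 7.28, 7.86 and 9.45 FPKM in young pituitary, and the ages overlapped.

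Among the synthesis genes, Pmvk and Mvk varied most between libraries, judged by the ratio of the highest to the lowest of the 8 (2.76 and 2.28). Pmvk ranged from 7.14 to 10.8 FPKM in old and from 5.39 to 14.9 FPKM in young libraries, a coefficient of variation of 19.2% and 39.9%, and Mvk from 1.28 to 2.74 FPKM in old and from 1.37 to 2.91 FPKM in young libraries. Their intervals, -0.84 to 0.58 for Pmvk and -0.86 to 0.51 for Mvk, were the widest of the synthesis genes. Fdps shares 26.7% of its exon bases with an overlapping gene model on the same strand, so its counts are less certain.

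The late steps start with squalene synthase, Fdft1, the most abundant synthesis gene. It was at 11.1, 12.2, 12.6 and 10.9 FPKM in old pituitary and at 11.6, 11.7, 12.5 and 12.5 FPKM in young pituitary, nearly level across the 8 libraries, with a log2 fold change of -0.05 (interval -0.26 to 0.16). Of its exon bases, 18.3% overlap a gene on the opposite strand, and whether the counting used strand is not stated in the sources used here. Squalene epoxidase, Sqle, was at 3.54, 3.63, 4.27 and 3.88 FPKM in old and at 3.64, 3.39, 3.89 and 3.65 FPKM in young libraries (log2 fold change 0.07), and lanosterol synthase, Lss, averaged 1.87 ± 0.205 FPKM in old and 1.75 ± 0.134 FPKM in young libraries (SD, n = 4 each).

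Cyp51, which removes a methyl group from lanosterol, had the lowest fold change of all members. It was at 2.93, 3.53, 4.02 and 3.68 FPKM in old pituitary and at 4.52, 3.19, 5.43 and 4.93 FPKM in young pituitary, so that 3 young libraries lay above every old one and the second young one lay among them. The log2 fold change was -0.33 (interval -0.75 to 0.10, adjusted p = 0.335 in limma), and without the second young library it was -0.48 (adjusted p = 0.132). Nsdhl, a dehydrogenase of the next demethylation steps, had the highest fold change of the group, 0.27 (interval -0.03 to 0.56, adjusted p = 0.269 in limma), with 2.29, 3.07, 2.87 and 2.34 FPKM in old and 2.24, 2.03, 2.38 and 2.01 FPKM in young libraries. The highest young library lay above 2 of the old ones.

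Dhcr7, the last reductase of the pathway, was at 3.08, 2.93, 3.18 and 2.41 FPKM in old pituitary and at 3.70, 2.81, 3.24 and 3.52 FPKM in young pituitary (log2 fold change -0.19, interval -0.49 to 0.11). The least abundant synthesis gene was Hsd17b7, a ketosteroid reductase of the demethylation steps. It was at 0.353, 0.233, 0.468 and 0.269 FPKM in old and at 0.387, 0.352, 0.345 and 0.257 FPKM in young libraries, resting on 121 fragments per age, with an interval of -0.47 to 0.40 for its log2 fold change. The other late genes, the reductase Tm7sf2, the oxidase Msmo1, the isomerase Ebp and the desaturase Sc5d, had log2 fold changes of 0.04, 0.14, -0.09 and -0.06, and the old and young libraries overlapped for each.

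The average level of the synthesis genes differed between libraries of the same age. Taken over the 18 genes, the log2 level relative to each gene's own mean was -0.13, -0.08, 0.16 and 0.05 in old libraries and -0.05, -0.14, 0.08 and 0.13 in young libraries. The third old library held the highest value of 6 genes and the lowest of 0, and the first young library the lowest value of 5. The difference between the age means was -0.0050, against an SD between libraries of 0.13 in each age.

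**Figure D5:**
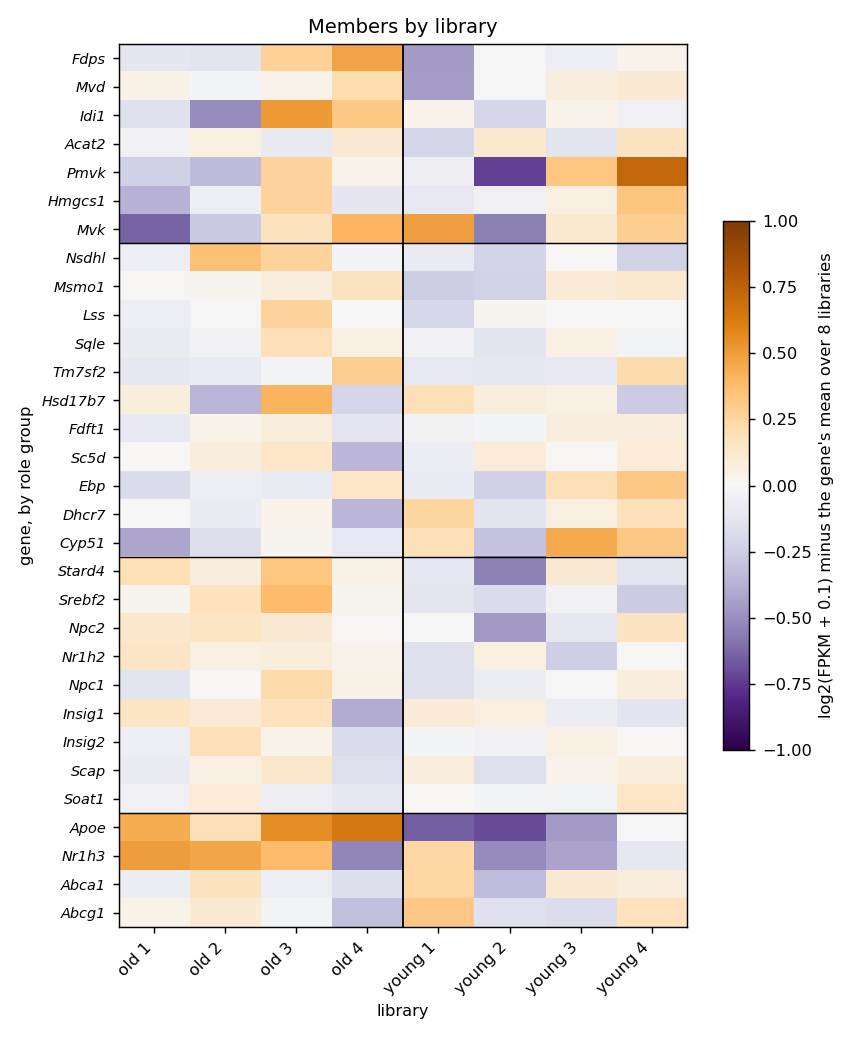
Log2(FPKM + 0.1) of each member minus its mean over 8 libraries, with old libraries left and young libraries right of the line and role groups separated by horizontal lines. Apoe is orange in the old libraries and purple or white in the young ones, while synthesis genes differ more between libraries of an age (averages from -0.14 to 0.16) than between the ages.

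Sterol sensing and movement had 9 members, of which 0 were called by limma or voom. At an unadjusted p under 0.05 limma gave 1, Srebf2, and voom gave 2, Srebf2 and Stard4, all higher in old pituitary. Srebf2 encodes SREBP-2 itself. Its level was 10.4, 11.7, 13.4 and 10.5 FPKM in old pituitary, against 9.43, 9.05, 10.03 and 8.57 FPKM in young pituitary, and every old library lay above every young one, the nearest of them by a small margin. Srebf2 averaged 11.5 ± 1.38 FPKM in old and 9.27 ± 0.616 FPKM in young pituitary (SD, n = 4 each). The log2 fold change was 0.30 (interval 0.04 to 0.56), its adjusted p of 0.177 in limma missed the threshold, and with median-of-ratios scaling the fold change was 0.15 (adjusted p = 0.521). The genes that respond to SREBP-2 in other tissues, the synthesis group, had a median of -0.0049 in the same fit.

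The partners of SREBP-2 had fold changes near 0. Insig1, which retains the complex and is itself induced when sterols are low, was at 15.3, 14.7, 15.6 and 10.4 FPKM in old pituitary and at 14.7, 14.4, 13.2 and 12.6 FPKM in young pituitary. Of the old libraries 3 lay above every young one and the fourth lay below all. Its log2 fold change was 0.02 (interval -0.33 to 0.36), and 0.15 without the fourth old library (adjusted p = 0.464 in limma). Insig2 was 7.69 ± 0.862 FPKM in old and 7.69 ± 0.225 FPKM in young pituitary, and Scap, the escort protein, was 8.94 ± 0.815 FPKM in old and 9.04 ± 0.671 FPKM in young pituitary (SD, n = 4 each).

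Genes that move sterols came next. Npc2, which hands cholesterol out of the lysosome, was the most abundant of this group, at 31.4, 31.7, 30.7 and 28.6 FPKM in old pituitary and at 28.5, 20.6, 26.4 and 31.8 FPKM in young pituitary. The young values spread wider and enclosed the old ones, and the log2 fold change was 0.21 (interval -0.12 to 0.53). Npc1, its membrane partner, averaged 4.57 ± 0.475 FPKM in old and 4.33 ± 0.302 FPKM in young pituitary (SD, n = 4 each). Stard4, a sterol carrier of the cytosol and the least abundant of the group, was at 2.11, 1.94, 2.32 and 1.90 FPKM in old pituitary and at 1.70, 1.23, 1.99 and 1.67 FPKM in young pituitary. Only the third young library reached into the old range, and the log2 fold change was 0.33 (interval -0.03 to 0.68, adjusted p = 0.263 in limma).

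Soat1, which esterifies cholesterol for storage, was 6.31 ± 0.382 FPKM in old and 6.56 ± 0.383 FPKM in young pituitary, with a log2 fold change of -0.05 (interval -0.26 to 0.15). Nr1h2, the LXRβ receptor, was 7.93 ± 0.289 FPKM in old and 7.09 ± 0.703 FPKM in young pituitary (SD, n = 4 each), with a log2 fold change of 0.17 (interval -0.07 to 0.40). In both ages its FPKM was several times that of Nr1h3. The median of the group was 0.07, and 5 of its 9 members lay below the median of all genes.

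The genes of 5 further lists of the same pathways were counted in the same fit, and limma called 2 of them, both higher in old pituitary. Over all genes limma called 1.86% higher and 0.472% lower, and voom 6.12% and 1.52%. With 7 to 20 genes tested per list, so few limma calls do not set these lists apart from all genes. Of 11 genes of oxysterols, bile acids and sterol esters 9 were tested and Lipe was called, while voom called Lipe and Cyp27a1, both higher. Lipe, hormone-sensitive lipase, which also splits cholesterol esters, was at 1.71, 1.71, 1.84 and 1.81 FPKM in old pituitary, against 1.097, 1.299, 1.023 and 1.198 FPKM in young pituitary, with no overlap (log2 fold change 0.58, standard error 0.098, adjusted p = 0.0343 in limma). The call was lost with median-of-ratios scaling (adjusted p = 0.0918) and without any 1 library except the second young one, and 15.6% of the exon bases of Lipe overlap an antisense gene. The most abundant of this list, Hsd3b7, a steroid dehydrogenase of bile acid synthesis, was 12.4 FPKM on average in old and 12.9 FPKM in young pituitary.

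Of 15 other efflux and lipoprotein genes 12 were tested and Apoc2 was called, while voom called 4, Apoc2, Apod, Cyp27a1 and Lpl, all higher. Apoc2, the cofactor of lipoprotein lipase and a neighbour of Apoe on the same chromosome, had 8, 4, 3 and 2 fragments in the old libraries and 0 in each young library, so that it was at least 5.64-fold higher in old pituitary, taking 3 fragments over the young group as the floor. It passed the filter on low values only through the old libraries, in which it is high, so its call is no support for a difference. So few fragments limit this value, and 79.5% of its exon bases lie in an overlapping gene model on the same strand. Without the first old library Apoc2 did not reach the minimum level to be tested. The most abundant gene of the list, clusterin (Clu), was 57.2 FPKM on average in old and 55.3 FPKM in young pituitary.

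The other 3 lists gave 0 calls by limma. Of 9 other synthesis genes 7 were tested, all with log2 fold changes above 0 and a median of 0.23, and 4 reached an unadjusted p under 0.05, while 70.0% of all genes tested lay above 0 and 21.8% reached that p. The most abundant of them, Cnbp, a nucleic acid binding protein, was 56.6 FPKM in old and 48.5 FPKM in young pituitary. Of 13 other sterol sensing genes 3 reached that level and the median was 0.12, with Vcp, an ATPase that extracts proteins from the endoplasmic reticulum, at 40.3 FPKM in old and 39.1 FPKM in young pituitary. Of 20 other uptake and movement genes 8 reached it and the median was 0.18, with Scarb2, a lysosomal membrane protein, at 39.4 FPKM in old and 33.3 FPKM in young pituitary. In these 3 lists voom called 1 gene (Dhdds, higher), 0 genes, and 3 genes (Lipa and Tspo higher, Scarb1 lower).

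Every old library stood above every young one for 28.6% of other synthesis, 30.8% of other sterol sensing and 30% of other uptake and movement genes. For other efflux and lipoprotein genes the share was 33.3%, and for oxysterol, bile acid and ester genes 22.2%, against 13.4% of all genes. Every old library stood below every young one for 1 of 20 uptake and movement genes, against 2.06% of all genes. Of those that missed the limma threshold only some are given here, named after their values had been seen. Cyp27a1, the mitochondrial sterol hydroxylase that makes an oxysterol, was at 10.1, 10.98, 10.6 and 10.4 FPKM in old pituitary, against 4.42, 7.95, 3.76 and 5.48 FPKM in young pituitary (log2 fold change 1.00, standard error 0.22, adjusted p = 0.0586 in limma and 0.00193 in voom). Apod, a carrier of small lipids, was at 5.95, 6.95, 5.09 and 8.41 FPKM in old pituitary, against 3.905, 3.30, 2.72 and 4.795 FPKM in young pituitary (log2 fold change 0.83, adjusted p = 0.0884 in limma and 0.011 in voom). Lipa, the lysosomal acid lipase that frees cholesterol from incoming esters, was at 3.37, 2.86, 3.04 and 2.72 FPKM in old pituitary, against 1.59, 1.32, 2.04 and 2.06 FPKM in young pituitary (log2 fold change 0.76, adjusted p = 0.0559 in limma and 0.0102 in voom). Tspo, an outer mitochondrial membrane protein that binds cholesterol, was at 17.6, 16.8, 18.6 and 14.2 FPKM in old pituitary, against 11.4, 8.29, 10.9 and 11.97 FPKM in young pituitary (log2 fold change 0.66, adjusted p = 0.0632 in limma and 0.0092 in voom).

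Scarb1, the receptor for high-density lipoprotein, went the other way, with 1.77, 1.74, 2.12 and 1.92 FPKM in old pituitary, against 2.75, 2.46, 2.597 and 3.34 FPKM in young pituitary (log2 fold change -0.53, adjusted p = 0.069 in limma and 0.0119 in voom). Every old library lay below every young one. Macrophages are rich in Lipa and Tspo in many tissues, and the macrophage sums given beside Apoe apply here too, their part in these values not having been tested.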

How the data were processed

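The members and gene lists were chosen with earlier results of these data known. Poly(A) RNA of whole pituitary was sequenced in 4 old and 4 young libraries, grouped by the labels. The authors aligned reads with STAR 2.6.1a to GRCm38, counted fragments with featureCounts and deposited FPKM computed with edgeR 3.28.1; no other values were used, while for the annotation release and the strand setting the sources used here give nothing. Old and young libraries were compared with limma 3.58.1 in R 4.3.3 on log2(FPKM + 0.1), for genes averaging 0.1 FPKM or more, with Benjamini-Hochberg adjustment; fold changes are old over young. Fragments were computed from FPKM and exon lengths of GENCODE M21, whole within 0.01 for 90.3 to 91.4% of low values, and for 4772 rows a length was fitted. Totals of 15042321 to 20429604 fragments put 3 fragments at 0.147 to 0.199 CPM, a floor that covers counting error only, whereas limma intervals reflect the spread between libraries. No libraries were duplicates. Levels were given per library for called members, efflux genes and group extremes, and of other lists for called genes and the most abundant. The test was tried on simulated data. Alternatives were 2 scalings, pseudocounts of 1 and 0.01, no filter or a mean of 1 FPKM, a mean-variance trend, voom, the replicate block and leaving out each library. Python 3.11.15, numpy 2.4.6, pandas 2.3.3 and matplotlib 3.10.9 were used.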

Additional observations from a re-analysis of the deposited data

Results flagged for a closer look

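In 6 of 65 groups of 4 libraries checked, the highest or lowest library lay apart from the other three by more of the group's range than Dixon's 95% critical value allows, and chance alone does this in about 1 in 20 groups. In the fourth old library Nr1h3 was at 1.05 FPKM (other old libraries 2.04 to 2.22) and Insig1 at 10.4 FPKM (14.7 to 15.6). In the fourth young library Tm7sf2 was at 2.46 FPKM (1.946 to 1.953 in the other young libraries) and Soat1 at 7.13 FPKM (6.32 to 6.45). Lss was at 2.17 FPKM in the third old library (1.72 to 1.80 in the others) and at 1.55 FPKM in the first young library (1.79 to 1.84). None of these 5 genes was called by limma with all libraries or with any 1 library left out.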

How the results depend on the processing

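Of 17 alternatives, 5 kept Apoe as a call and none called another member. Limma called 0 members higher with either other scaling, a pseudocount of 0.01, no filter on low values or the replicate block, and 0 to 1 with a library left out. Over all genes, limma called 208 higher and 214 lower with median-of-ratios scaling, 213 and 187 without the hormone and ribosomal RNA repeat genes, 689 higher with a pseudocount of 1, 263 higher with no filter, 796 higher at a mean of 1 FPKM or more, 705 higher with a mean-variance trend, and voom 1437 and 356; leaving out a library gave 64 to 327 higher and 21 to 163 lower. The replicate numbers did not pair the libraries (correlations of same-numbered libraries from -0.037 to 0.037); with the replicate block 4 genes were called higher and 0 lower, and the Apoe fold change of 0.91 had an adjusted p of 0.129.

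Of the members, 14 kept their direction throughout, and 17, none of them called, changed sign at least once. With median-of-ratios scaling log2 fold changes were -0.080 for Sqle, -0.053 for Lss, -0.044 for Idi1, -0.00014 for Mvd, -0.0049 for Msmo1, -0.11 for Tm7sf2, -0.12 for Acat2, -0.14 for Insig1 and -0.076 for Npc1, and without hormone and ribosomal RNA repeat genes -0.064 for Sqle, -0.037 for Lss, -0.030 for Idi1, -0.093 for Tm7sf2, -0.10 for Acat2, -0.12 for Insig1 and -0.060 for Npc1; the median of all genes moved by a like amount. With a library left out the range was -0.067 to 0.27 for Idi1, -0.38 to 0.013 for Mvk, -0.40 to 0.086 for Pmvk, -0.12 to 0.045 for Sc5d, -0.18 to 0.076 for Hsd17b7, -0.053 to 0.12 for Tm7sf2, -0.040 to 0.086 for Acat2, -0.041 to 0.15 for Insig1, -0.071 to 0.055 for Insig2, -0.071 to 0.032 for Scap, -0.18 to 0.014 for Abca1 and -0.16 to 0.0015 for Abcg1. Apoc2 and Lipe kept their direction; Apoc2 was called in 7 of the 15 alternatives in which it was tested and Lipe in 6 of 17. Hsd17b7, Idi1 and Apoc2 rest on the fewest fragments. The cause of these changes was not tested.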
